A study of Mus musculus with 16 samples.

Results

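The crosslinking time course at 1 mW laser power and 4.2x Dazl consists of 3 of the 12 libraries with a processed file, out of 16 samples in all, taken after 30, 180 and 680 s of crosslinking. They were chosen by their labels alone, with 1 library per time, so nothing within the course has a replicate error and no test compares its times. The study is a KIN-CLIP experiment, a form of iCLIP in which cells are exposed to a pulsed femtosecond ultraviolet laser for defined times, so that the RNA joined to an RNA-binding protein can be followed over time. All samples come from 1 monoclonal line, derived from the mouse spermatogonial line GC-1 spg, that carries a doxycycline-inducible Dazl gene and was kept in blasticidin and Zeocin. The other 9 libraries cover the same 3 times at 1 mW with 1x Dazl, at 2.6 mW with 1x Dazl and at 2.6 mW with 4.2x Dazl. The 4 samples of 0 s were not analysed here, and the values below therefore stand without a background from cells that saw no laser light. Being 1 clone with an induced transgene limits the line as a model of germ cells.

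Dazl is a germ cell RNA-binding protein with an RNA recognition motif and a DAZ repeat. It is known to bind short sequences around GUU, mostly in the 3 prime untranslated regions of mRNAs, and to influence their translation and stability. Ultraviolet light joins protein and RNA only where they touch at the moment of the pulse, and the bond is covalent, so that the joined RNA can be recovered with the protein and sequenced.

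Each library lists chromosome intervals with a whole-number score per position, which the authors call normalized coverage. Intervals of the 12 libraries at most 10 nt apart were joined into 8338 regions, of which 6798 (81.5%) were 17 nt long, and the value of a region is its width times score, summed, called coverage below. Gene values are sums over 7838 regions in 3203 genes. No region was missing from any of the 3, with 93.9% to 94.2% of their coverage in these genes and 5.6% to 5.7% in their 10 highest genes. The lowest region value was 1 at 30 s (27.5% of regions), 1 at 180 s (30.6%) and 2 at 680 s (10.0%). The number of reads behind the scores is unknown and how they were normalized is not stated in the labels, yet every comparison of levels between libraries rests on that step.

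Some regions lie inside RefSeq promoter windows of the same build (GRCm38.p6, the assembly called mm10), which run from 250 nt before to 50 nt after a gene's start, and only for these was sequence read. They numbered 150, of which 113 were 17 nt long. In 53 of the 113 (46.9%) the 3 middle positions, 8 to 10, read GTT on the plus strand of the reference, against 1.21% of all 17-nt stretches of the same windows. No other position of the regions began a GTT in more than 3 of them. The middle GTT was found in 25 of 53 regions in plus-strand genes and in 10 of 21 in minus-strand genes, again on the plus strand. In minus-strand genes the RNA therefore carries the complement, AAC, at that place, and the middle read GTT in the RNA's own direction in 0 of the 21. The 12 sequences shown are the 4 highest at 680 s among regions in their own gene's window with a middle GTT in a plus-strand gene, with one in a minus-strand gene, and with none. All are written 5′ to 3′ on the reference plus strand, and capitals mark a GTT at positions 8 to 10.
Arf5: ccggccgGTTccagccc
Stk11: gtccaccGTTgcgacgt
Rnf135: cggggaaGTTagtagga
Gigyf2: atcttgtGTTgttgagg
Appbp2 (minus-strand gene): gagcccaGTTccgtcca
Dad1 (minus-strand gene): cgtgcgcGTTagcgggc
Ccdc151 (minus-strand gene): cctgcgtGTTcgctggc
Zfp473 (minus-strand gene): aaatggaGTTtccagca
Triap1: tcagaatgcgtcgccgt
Cpsf4: ctcccggcatccctcgc
Klhl11 (minus-strand gene): tccgaacggtgcggcaa
Galnt11: ggtgacgcgtgccgtga

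These start-proximal regions already show the different courses found across the 1 mW, 4.2x libraries. The region in Arf5, a small GTPase of the Golgi, at chr6:28423629-28423645, had 4, 9 and 36 at 30, 180 and 680 s. That in Dad1, a subunit of the oligosaccharyltransferase, at chr14:54253895-54253911, had 34, 21 and 29. That in Cpsf4, a subunit of the cleavage and polyadenylation factor, at chr5:145167216-145167232, had 1, 1 and 30. Arf5 was higher at each later time, Dad1 was lowest at 180 s and did not return to its first value, and Cpsf4 stood at the lowest listed value until 680 s. Stk11, a protein kinase that activates AMPK, had 15, 22 and 31, Gigyf2, a translational repressor, 10, 6 and 24, and Appbp2 19, 7 and 30. Triap1, a small mitochondrial lipid-transfer protein, had 41, 21 and 34 and Galnt11, a glycosyltransferase, 2, 4 and 26. Over the 113 regions the 53 with a middle GTT summed to 380, 286 and 957 and the 60 without to 447, 260 and 943, with medians of 4, 3 and 17 against 2, 3 and 16.5. Both kinds were lower in sum at 180 s and highest at 680 s. These regions are a small set near gene starts and do not stand for the rest.

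The total coverage was 74552 at 30 s, 48334 at 180 s and 153860 at 680 s. The 180 s library thus held 64.8% of the 30 s total, and the 680 s library 206% of it and 318% of the 180 s total. Both parts of the total moved the same way. The covered positions numbered 51299, 38550 and 90868, and the mean score per covered position was 1.45, 1.25 and 1.69. On the log2 scale the step from 30 to 180 s was -0.63 in the total, of which -0.41 lay in covered positions and -0.21 in the score per position. The step from 180 to 680 s was 1.67, with 1.24 and 0.43. The lower total at 180 s was found in 17-nt regions (33732 against 52069), in longer regions (14041 against 21768) and in shorter ones (561 against 715).

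**Figure D1:**
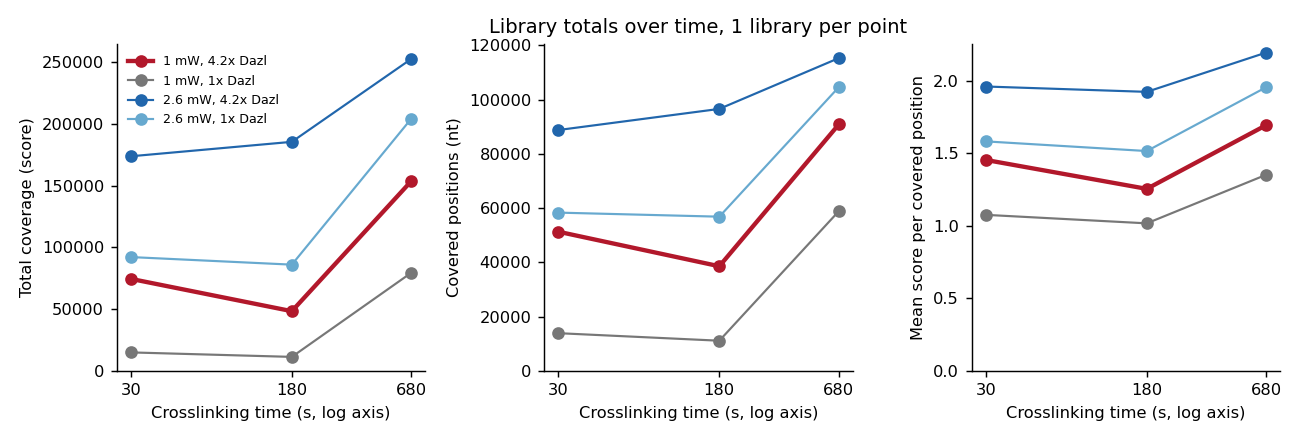
Total coverage, covered positions and mean score per covered position (y axes, from 0) against crosslinking time in s (log axis) for each laser power and Dazl level, with 1 library per point and no error bars. At 1 mW and 4.2x Dazl (thick line) the total went from 74552 to 48334 and then to 153860.

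The other series took different steps between 30 and 180 s. The total was 75.6% of the 30 s total at 1 mW and 1x Dazl, 93.3% at 2.6 mW and 1x Dazl, and 107% at 2.6 mW and 4.2x Dazl. The lowest of the 4 ratios, as listed, was therefore that of 1 mW and 4.2x Dazl. At 1 mW and 1x Dazl 74.0% of regions stood at the lowest value of 1 at 30 s and 80.5% at 180 s. No region is listed below 1, so 8338 of that series' totals of 14910 at 30 s and 11271 at 180 s is this lowest value. The order of the 1 mW series depends on this limit. With 1 value per series the smallest one-sided p a permutation could give is 0.25, so this order was not tested. Between 30 and 680 s the totals were 2.06 times higher at 1 mW and 4.2x Dazl, 5.33 times at 1 mW and 1x, 2.22 times at 2.6 mW and 1x and 1.45 times at 2.6 mW and 4.2x.

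The 180 s values were lower on most regions. Of 8338 regions 4565 (54.7%) were lower at 180 s than at 30 s, 2861 (34.3%) were equal and 912 (10.9%) were higher. Of the equal ones 2153 stood at 1 at both times. Between 180 and 680 s 0 regions were lower, 46 were equal and 8292 (99.4%) were higher. At 2.6 mW and 1x Dazl 49 regions were lower at 680 s than at 180 s, while the other 2 series also had 0. Whether values of different libraries were linked before deposit is not stated in the labels, and the courses below are those of the deposited values.

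The 3 times together gave 3 main courses. In 3520 regions (42.2%) the value was lower at 180 s and above the 30 s value at 680 s. In 2838 (34.0%) it was equal at 30 and 180 s and higher at 680 s, among them 1406 regions that stood at 1 at both early times and at 10 or more at 680 s. In 899 (10.8%) it was higher at each later time. A further 438 regions were lower at 180 s and back at exactly their 30 s value at 680 s, and 607 (7.3%) were lower at 180 s and still below their 30 s value at 680 s.

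The 607 regions that ended below their 30 s value lay in 509 genes. Their median value at 30 s was 18, and the median deficit at 680 s was 2, with a largest deficit of 15. The largest deficits were in Slc38a2, a neutral amino acid transporter, and Ipo8, a nuclear import receptor. The Slc38a2 region at chr15:96688005-96688021 had 51, 27 and 36, and the Ipo8 region at chr6:148804670-148804686 had 66, 26 and 51. A region of S100a6, a calcium-binding protein, had 44, 23 and 32, a region of H2az2, a histone variant, 35, 16 and 24, and a region of Slc25a48, a mitochondrial carrier, 34, 15 and 23. Since 0 regions were lower at 680 s than at 180 s, no region's deficit at 680 s could exceed its loss between 30 and 180 s. Of the 607 regions, 77 were also below their 30 s value at 2.6 mW and 1x Dazl, where 666 (7.99%) of all 8338 regions were. At 1 mW and 1x Dazl 11 of the 607 were below, where 73 (0.88%) of all regions were. None of them was below at 2.6 mW and 4.2x Dazl, where 0 of all 8338 regions were.

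The ratio of 180 to 30 s depended on the 30 s value. The 2289 regions at 1 at 30 s summed to 2437 at 180 s, 1.06 times as much, since a value cannot be listed below 1. Regions of 2 to 4 had a ratio of 0.93, those of 5 to 9 of 0.82, those of 10 to 19 of 0.60, those of 20 to 39 of 0.54 and the 111 regions of 40 and more of 0.58. Sorting by the 30 s value itself makes high values look lower at any other time, so the regions were also sorted by a library outside the course, that of 680 s at 2.6 mW and 4.2x Dazl. In its 5 classes of nearly equal size the ratio was 0.69, 0.65, 0.65, 0.64 and 0.64 from the lowest to the highest. Sorted in that way the relative decrease at 180 s was close to even over weak and strong regions in the listed values. Each region holds at least 1. At 180 s this made up 1787 of 3900 in the lowest class and 1666 of 19547 in the highest. The evenness depends on this lowest value. The part of the 680 s coverage already listed at 30 s ran from 59.0% in the lowest class to 43.8% in the fourth and 48.3% in the fifth.

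The place of a region in its gene was set against the course, with the strand of 2553 genes taken from the promoter table (6215 regions). Regions lay near the 3 prime end of the gene span. The share within 1000 nt of the 3 prime end was 37.1% and that within 1000 nt of the 5 prime end 6.58%, with a median distance of 1686 nt to the 3 prime and 23823 nt to the 5 prime end. The spans include introns, and untranslated regions were not annotated here. Regions within 300 nt of the 3 prime end had medians of 9, 6 and 18 at 30, 180 and 680 s, and regions more than 10000 nt from it 3, 3 and 14. At 30 s 19.1% of the first and 35.5% of the second stood at the lowest value of 1, and at 680 s 6.64% and 16.4% stood at the lowest value of 2. Regions far from the 3 prime end thus stood at the lowest value more often at both times. In sums the classes differed little, since 51.4% of the 680 s coverage was listed at 30 s in the nearest class and 46.1% in the farthest. The ratio of 180 to 30 s lay between 0.64 and 0.66 in all 5 classes of distance.

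**Figure D2:**
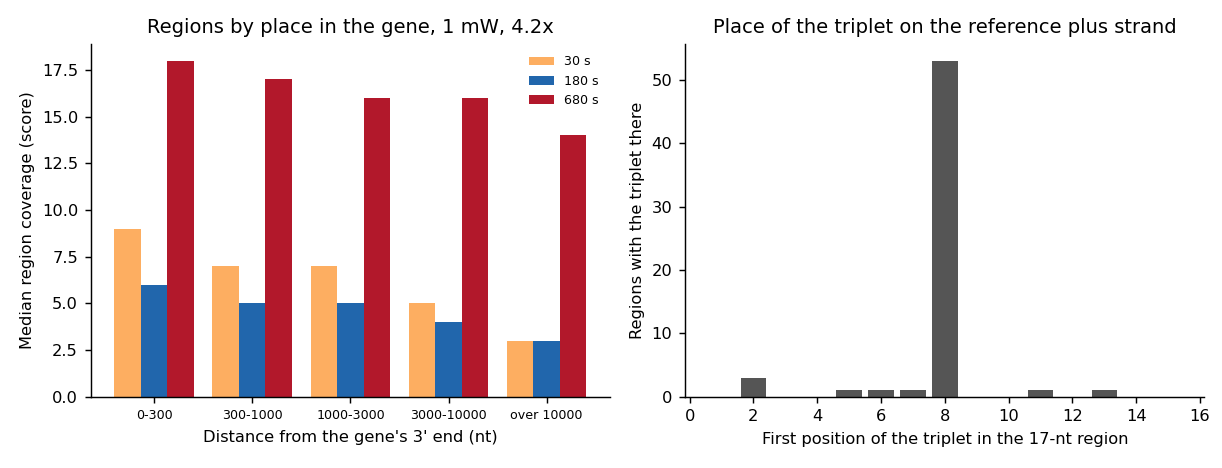
Left, median region coverage (bars from 0) at 30, 180 and 680 s at 1 mW and 4.2x Dazl by distance from the 3 prime end of the gene in nt, where the nearest class has medians of 9, 6 and 18. Right, number of the 113 regions of 17 nt inside promoter windows (bars from 0) that have the triplet GTT on the reference plus strand, by the triplet's first position, with 53 regions at position 8.

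Gene coverage was compared on the scale of log2(value + 3) for the 2204 genes with a mean of at least 10 over the 12 libraries, and a difference of at least 2-fold on that scale is called a 2-fold difference. At 180 s 1732 genes (78.6%) were lower than at 30 s, 206 were higher and 266 equal, with a median difference of -0.48 (0.72-fold). The 2-fold difference was passed by 185 genes downward (8.39% of those tested) and 0 upward (0.0%). These counts depend on the scale. The downward count was 302 with a pseudocount of 1 and 28 with a pseudocount of 10, and relative to the median difference 5 genes were lower and 16 higher.

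From 180 to 680 s all 2204 genes were higher, with a median of 1.43 (2.70-fold), and 1809 (82.1%) by 2-fold. Relative to the median 206 were higher and 23 lower. Over the whole course 2100 genes were higher at 680 than at 30 s, 72 lower and 32 equal, with a median of 0.90 (1.87-fold). In this comparison 977 (44.3%) were higher by 2-fold and 0 lower (0.0%), and relative to the median 339 were higher and 58 lower. The median gene had 50.0% of its 680 s coverage at 30 s (quartiles 32.1% and 66.7%) and 32.6% at 180 s (23.3% and 41.2%). Of the tested genes 146 had every region at 1 at 30 s and 158 at 180 s, and a fold against such a value depends on the lowest listed value and the pseudocount.

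**Figure D3:**
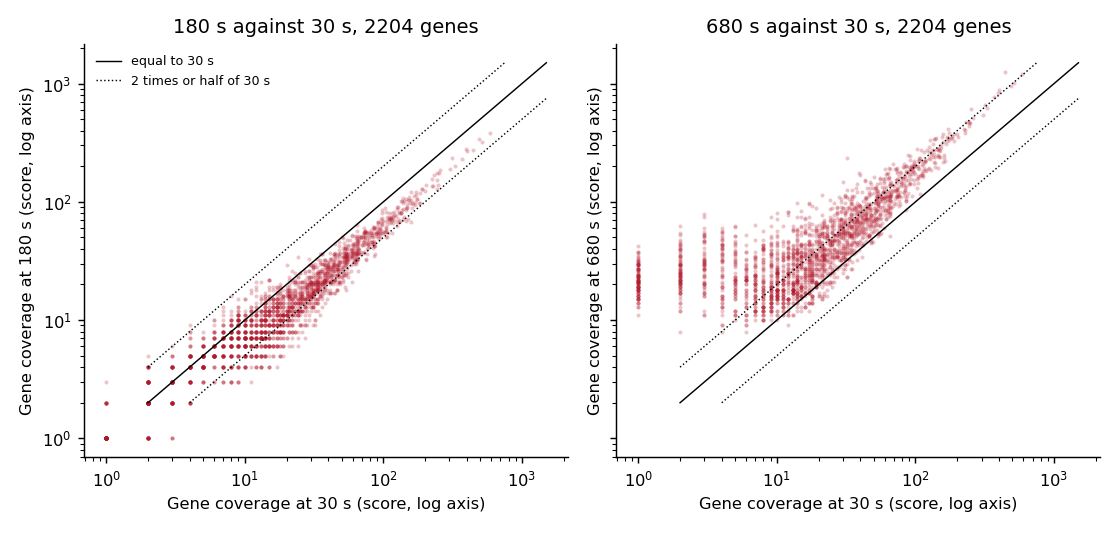
Coverage of the 2204 tested genes at 180 s (left) and 680 s (right) against 30 s at 1 mW and 4.2x Dazl, log axes, 1 point per gene; solid lines mark equal values, dotted lines a plain 2-fold difference without the pseudocount. At 180 s 1732 genes lie under the line of equality, and at 680 s 2100 lie above it.

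The RNAs with the highest coverage at 680 s were also far above the median at 30 s and took the course of the total. Malat1, a long noncoding RNA of nuclear speckles, had 440, 273 and 1243 at 30, 180 and 680 s over 38 regions. Neat1, the long noncoding RNA that builds paraspeckles, had 584, 383 and 1206 over 62 regions. Neat1 was above Malat1 at 30 and 180 s, and the order was the other way at 680 s. Thbs1, an adhesive glycoprotein of the matrix, had 515, 318 and 1004, and the type I collagen chain Col1a1 had 488, 338 and 963. Scd2, a fatty acid desaturase, had 403, 270 and 877 (another gene overlaps 1 of its 27 regions), and Timp2, an inhibitor of matrix metalloproteinases, 397, 281 and 833. The lectin chaperone Canx had 368, 232 and 776, the disulfide isomerase Pdia3 315, 235 and 664, the proteoglycan Sdc4 329, 202 and 622, and the endosomal membrane protein Tm9sf3 251, 174 and 605. All 10 were lowest at 180 s, at between 61.4% (Sdc4) and 74.6% (Pdia3) of their 30 s value. Malat1 had the smallest part of its 680 s coverage at 30 s, 35.4%, and Sdc4 the largest, 52.9%.

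Regions of a single RNA did not share a course. Among the 62 Neat1 regions 42 were lower at 180 s than at 30 s, 13 equal and 7 higher, and 2 ended below their 30 s value. Their share of the 680 s value listed at 30 s had a median of 52.1% and ran from 3.57% to 115%. Of the 43 Col1a1 regions 27 were lower at 180 s and 7 higher, with shares at 30 s from 4.55% to 141%. Of the 38 Malat1 regions 22 were lower and 4 higher, with shares from 2.78% to 91.9% and a median of 41.7%. The strongest single region, of 150 nt in Pdia3 at chr2:121437783-121437932, had 258, 187 and 512, and that of Thbs1 at chr2:118126897-118126982 had 257, 138 and 462. The strongest region of the integrin subunit gene Itgb1 had 117, 62 and 248.

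The genes with the largest and smallest differences were taken from those with at least 2 regions, 8 for each end. With 2 or 3 regions and low values each, they are descriptions of these 3 libraries. The largest differences between 680 and 30 s were found in Map2k1, the kinase upstream of ERK, with 3, 5 and 79, in Abtb2 with 2, 2 and 63, and in Tnpo3, which carries SR proteins into the nucleus, with 3, 3 and 75. Bnc1, a zinc finger protein of epithelia and germ cells, had 2, 3 and 55, and the histone gene H4c8 had 2, 2 and 52. H4c8 has near-identical copies elsewhere in the genome, so its reads may be shared. The receptors Tgfbr2 and Ror2, for transforming growth factor beta and for Wnt5a, had 3, 3 and 60 and 2, 2 and 48. Cflar, which blocks caspase activation by death receptors, had 3, 3 and 56 in 3 regions of 1, 1 and 25, of 1, 1 and 19 and of 1, 1 and 12. All 8 had between 3.17% and 5.36% of their 680 s coverage at 30 s, close to the lowest value a listed region can have.

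The 8 genes at the other end had slightly less at 680 s than at 30 s. H2az2 had 48, 24 and 45, Klhl42, an adaptor of a cullin ubiquitin ligase, 30, 12 and 27, and Lpl, the lipoprotein lipase, 27, 15 and 23. Peg3, an imprinted zinc finger gene, had 26, 14 and 23, and another gene overlaps both of its regions. Fcrlb had 24, 8 and 21, the mono-ADP-ribosyltransferase Parp14 18, 8 and 16, Mkln1, a subunit of the CTLH ubiquitin ligase, 22, 12 and 20, and Slmap 14, 8 and 13. In each of them the 180 s value was the lowest, at 33.3% to 57.1% of that at 30 s. Lpl was also below its 30 s value at 1 mW and 1x Dazl, with 18, 4 and 16, while the other 7 were above theirs there. Of these 7, Fcrlb, Parp14, Mkln1, H2az2 and Slmap stood at 2 at 30 s there. That is the lowest value 2 regions can have, so they could not have been lower at 680 s. At 2.6 mW and 4.2x Dazl no region of any gene was lower at 680 s than at 30 s, so that series cannot show such genes. At 2.6 mW and 1x Dazl 666 of all regions were lower at 680 s than at 30 s. All 8 genes were higher at 680 s there, for example Lpl with 34 against 9 and Klhl42 with 34 against 32.

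The genes that were lowest at 180 s relative to 30 s were Pggt1b, a subunit of a protein prenyl transferase, with 27, 7 and 38, and Plcg1, phospholipase C gamma 1, with 54, 18 and 53. Sirt3, a mitochondrial deacetylase, had 32, 10 and 46, Zcchc14 26, 8 and 25, and Colec12, a scavenger receptor, 28, 9 and 32. Cpsf1, the largest subunit of the cleavage and polyadenylation factor, had 59, 21 and 60, Arhgdia 53, 19 and 67 and Rybp, a Polycomb subunit, 27, 9 and 51. In Arhgdia the decrease came mostly from 1 of its 3 regions, which had 37, 9 and 29, and in Pggt1b from 1 of 2, with 26, 6 and 22. In Cpsf1 all 3 regions were lower at 180 s. At 2.6 mW and 4.2x Dazl Arhgdia alone of these genes was lower at 180 s, with 82 against 86. The others were higher there, for example Pggt1b with 38 against 20. At 2.6 mW and 1x Dazl Pggt1b, Zcchc14, Colec12 and Rybp were lower and the others higher. At 1 mW and 1x Dazl Pggt1b, Plcg1, Cpsf1 and Rybp were lower, and the others stood at their lowest possible value at both times.

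Among the 206 genes that were higher at 180 s than at 30 s, the 8 with the largest difference are given. Kdelr2, the receptor that returns proteins to the endoplasmic reticulum, had 24, 34 and 87, with 3 of its 4 regions higher at 180 s and the other at 1 at both times. Srsf2, an SR splicing factor, had 10, 15 and 71 and Dock9, an exchange factor for Cdc42, had 15, 22 and 56. Rab3ip, an exchange factor for Rab8, had 12, 19 and 82, Fcho1, an initiator of clathrin coats, 11, 18 and 36, and the ubiquitin ligase Trip12 8, 12 and 43. Map2k1 and the metalloproteinase Mmp17 both had 3 at 30 s and 5 at 180 s. The largest of these 8 differences was 0.58 on the log2(value + 3) scale, and the largest over all 2204 genes was 0.79, under the 2-fold difference. At 2.6 mW and 4.2x Dazl 6 of the 8 were also higher at 180 s, for example Map2k1 with 59 against 21 and Rab3ip with 70 against 56. Srsf2 had 94 against 106 there and Trip12 27 against 28. The median difference of all 2204 genes was itself positive in that series, at 0.046 on the log2(value + 3) scale. At 2.6 mW and 1x Dazl Rab3ip alone of the 8 was higher, with 27 against 20, and the others were lower. At 1 mW and 1x Dazl 0 of all 8338 regions were higher at 180 s than at 30 s, so that series cannot show such genes.

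**Figure D4:**
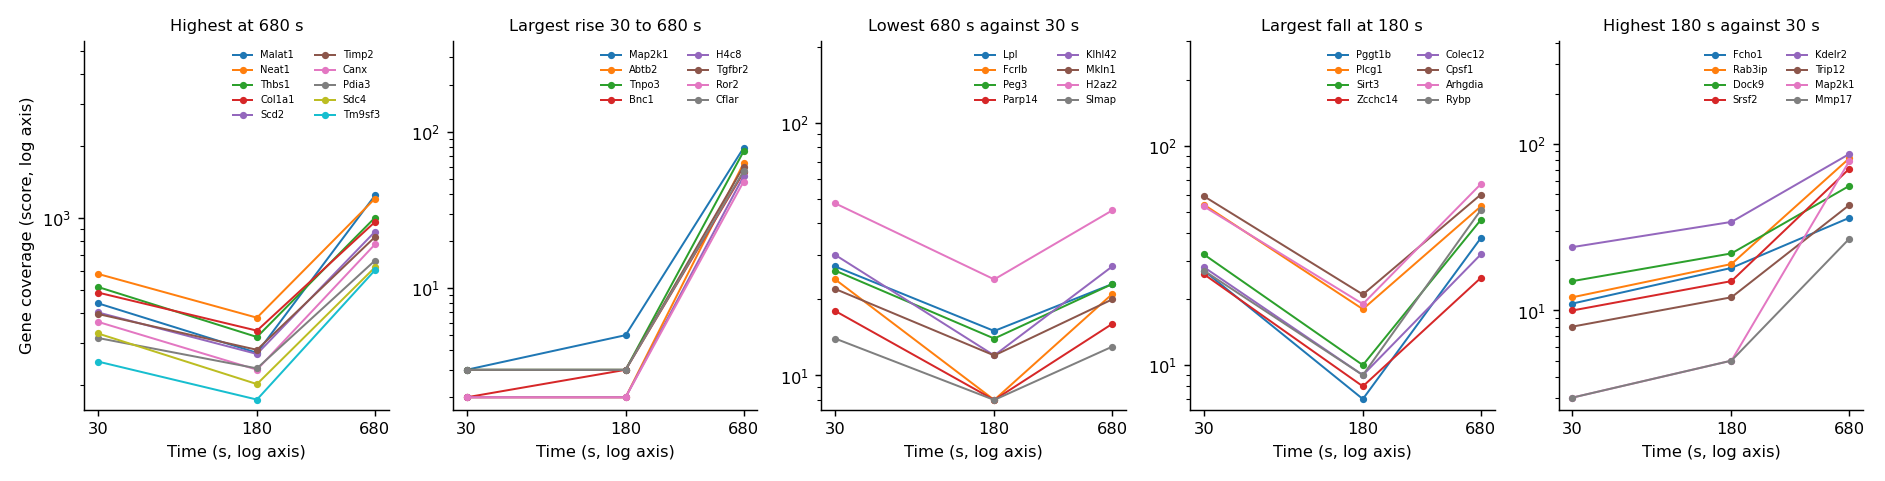
Gene coverage at 30, 180 and 680 s at 1 mW and 4.2x Dazl, both axes log and the y range set per panel, 1 line per gene. The panels show the 10 highest genes at 680 s and the 8 genes at each end of the 2 comparisons with 30 s; Malat1 goes from 440 to 273 and 1243, Tnpo3 from 3 to 3 and 75, and Plcg1 from 54 to 18 and 53.

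Thbs1, Col1a1, Timp2 and Sdc4, of the adhesion and collagen lists, were among the 10 highest genes at 680 s, and no gene of the actin list was. Of 48 adhesion and matricellular genes 29 had a region and 22 were tested, summing to 3113, 1965 and 6060 over the 3 times. Of all tested genes 78.6% were lower at 180 s, 8.39% by 2-fold, and 44.3% were higher by 2-fold at 680 s than at 30 s. Of the 22, 19 were lower at 180 s with 0 by 2-fold, and 7 were higher by 2-fold at 680 s. The median difference over the course was 0.92, close to the 0.90 of all genes. Itgb1, the beta-1 integrin, had 305, 190 and 546, and Fn1, fibronectin, 183, 119 and 363. Of 7 tested collagen genes 6 were lower at 180 s and 2 were higher by 2-fold at 680 s. Col1a2 had 97, 69 and 178 and Col5a2 58, 40 and 157. Of 27 tested actin cytoskeleton genes 22 were lower at 180 s, 3 of them by 2-fold, and 13 were higher by 2-fold at 680 s. Actb, where another gene overlaps 1 of 6 regions, had 69, 50 and 207, the nonmuscle myosin chain Myh9 95, 61 and 206 and the membrane linker Ezr 149, 91 and 239, while Arpc2, of the Arp2/3 complex, had 50, 50 and 163.

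The lists of RNA-binding proteins are given beside all tested genes, of which 78.6% were lower at 180 s (8.39% by 2-fold) and 9.35% higher. At 680 s 44.3% of all were higher by 2-fold. Of 15 tested hnRNP family genes 13 were lower at 180 s, 1 by 2-fold, with a median of -0.70 against -0.48 for all genes, and 4 were higher by 2-fold at 680 s. Hnrnpk, a poly(C)-binding protein, had 204, 140 and 356, Hnrnpl 105, 58 and 200 and Hnrnpu 83, 46 and 207. Of 9 tested SR factors 5 were lower and 2 higher at 180 s, and 4 were higher by 2-fold at 680 s. Srsf1 had 244, 128 and 435 and Srsf6 189, 128 and 374, where Srsf1 was at 52.5% and Srsf6 at 67.7% of the 30 s value. Of 23 tested cytoplasmic RNA regulators 20 were lower at 180 s, 2 by 2-fold, and 11 were higher by 2-fold at 680 s. The splicing and decay regulator Celf1 had 155, 97 and 352, the stress granule protein G3bp1 81, 55 and 196, and Tnrc6b, the partner of Argonaute, 98, 65 and 141.

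Deadenylation factors shorten the poly(A) tail, and Dazl is known to interact with the poly(A)-binding protein. Of 11 tested decay and deadenylation genes 9 were lower at 180 s with 0 by 2-fold, and 4 were higher by 2-fold at 680 s, with a median of 0.79. The Ccr4-Not nuclease Cnot6 had 78, 45 and 137, and Pan3, of the other deadenylase, 55, 35 and 63. Pan3 thus had 87.3% of its 680 s coverage at 30 s, while Tob1, an adaptor of Ccr4-Not, had 32.8% with 22, 18 and 67. These and the following counts stand beside 78.6% of all tested genes lower at 180 s, 8.39% by 2-fold, and 44.3% higher by 2-fold at 680 s. Of 18 tested translation factors 16 were lower at 180 s, 2 by 2-fold, and 12 were higher by 2-fold at 680 s. The elongation factor Eef2 had 63, 36 and 177, where another gene overlaps 1 of its 5 regions, and Eif1a, a factor of start codon scanning, 55, 48 and 155. Of 19 tested ribosomal protein genes 14 were lower at 180 s, 1 by 2-fold, and 11 were higher by 2-fold at 680 s. Rplp0 had 127, 71 and 230 and Rpl22 59, 34 and 108.

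The lists with the largest median difference between 30 and 680 s had low values at 30 s. The 13 tested cell cycle genes summed to 173, 138 and 528 and had a median of 1.54, with 10 higher by 2-fold against 44.3% of all genes. Their median at 180 s was 0.00, with 6 lower and 1 higher, against 78.6% and 9.35% of all tested genes. Ccnd2, a D-type cyclin, had 33, 28 and 89, Plk2 19, 14 and 63, Ccnd1 30, 16 and 56, and the kinase inhibitor Cdkn1b 33, 33 and 54. The 6 tested histone genes, linker histones and clustered core histones, had a median of 2.13 and 4 of them were higher by 2-fold. H4c11 had 3, 3 and 47 and H2ac8 27, 21 and 54, and both have near-identical copies whose reads may be shared. The linker histones H1f0 and H1f10, which are made outside DNA replication too, had 33, 19 and 51 and 17, 19 and 43. Over all regions the ratio of 680 to 30 s was also largest where the 30 s value was lowest, 12.8 for regions at 1 against 1.48 for those of 10 to 19, so nothing particular to these lists is read from their medians.

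Of 21 tested chaperone genes 19 were lower at 180 s (78.6% of all tested genes), 2 by 2-fold (8.39% of all). At 680 s 12 were higher by 2-fold (44.3% of all). Hsp90ab1, whose protein family the study used as a blotting control, had 81, 58 and 160 and Calr 73, 47 and 144. Of 9 immediate early and stress genes 5 were lower and 4 higher at 180 s, against 78.6% and 9.35% of all tested genes. Jund, an AP-1 subunit, had 199, 124 and 377, Fosl2, another, 84, 46 and 113, and Atf6, a sensor of the unfolded protein response, 27, 25 and 79. Of 9 noncoding RNAs 5 were lower and 3 higher at 180 s, and 5 were higher by 2-fold at 680 s. Rmrp, the RNA of RNase MRP, had 50, 26 and 57 and the snoRNA host Snhg1 57, 33 and 106.

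Membrane traffic, transport, ubiquitin, receptor and lipid genes were counted in the same way. They are to be read beside 78.6% of all tested genes lower at 180 s, 8.39% by 2-fold, and 44.3% higher by 2-fold at 680 s. The 58 tested vesicle traffic genes had 44 lower at 180 s, 3 by 2-fold, and 28 higher by 2-fold at 680 s. Arf4 had 125, 87 and 263 and the cargo receptor Tmed9 134, 81 and 238. Of 36 solute carriers 31 were lower at 180 s, 5 by 2-fold, and 10 were higher by 2-fold at 680 s, and the median of 0.71 was the lowest of the lists with at least 6 tested genes. Slc16a1, a lactate transporter, had 138, 98 and 196 and Slc38a1 168, 94 and 329. Of 56 ubiquitin genes 45 were lower at 180 s and 24 were higher by 2-fold at 680 s, with Nedd4 at 109, 80 and 273. Of 19 signal receptor and death receptor genes 13 were lower at 180 s and 11 were higher by 2-fold at 680 s, where the coreceptor Tgfbr3 had 100, 55 and 172 and the receptor kinase Axl 83, 44 and 119. Of 15 lipid and sterol genes 13 were lower at 180 s, and Elovl5, a fatty acid elongase, had 62, 32 and 85.

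**Figure D5:**
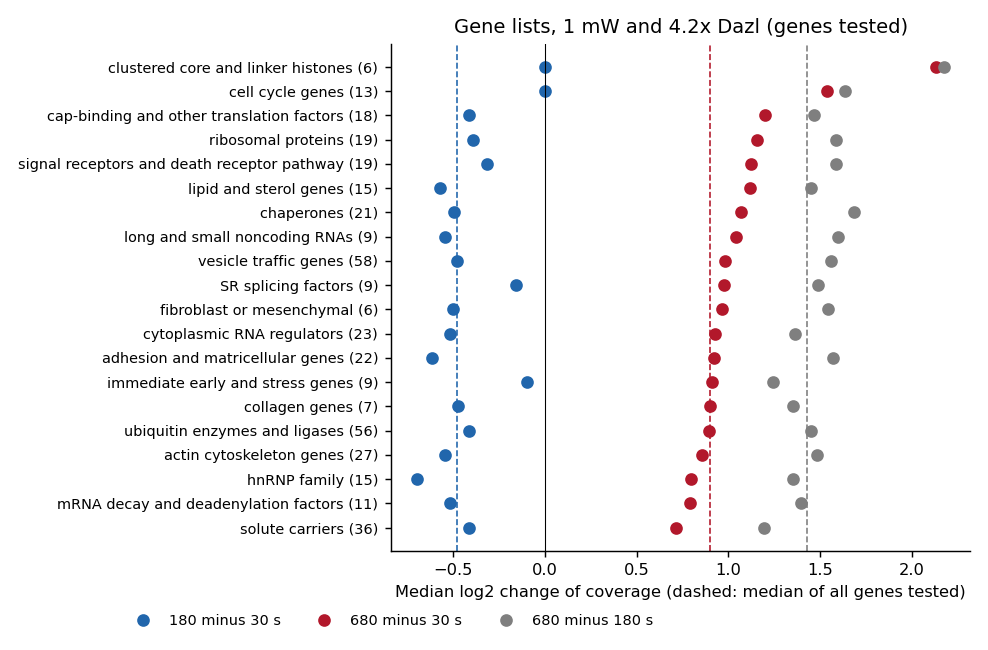
Median log2 difference of gene coverage, on log2(value + 3), for each gene list with at least 6 tested genes (number in parentheses), for the 3 pairs of times at 1 mW and 4.2x Dazl; dashed lines are the medians of the 2204 tested genes, at -0.48, 0.90 and 1.43. Lists lie around the dashed lines, with cell cycle genes and histones at 1.54 and 2.13 for 680 against 30 s.

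The share of genes with a region differed between lists, with 11 of 14 SR splicing factors, 78 of 328 ubiquitin genes and 53 of 337 solute carriers. The share over all reference genes was not computed, so the marker counts below are not read as low or high. Of 20 germ cell and spermatogonia genes 3 had a region, and Dazl itself, Ddx4, Zbtb16, Gfra1, Kit and Nanos2 had none. Mov10l1, a helicase of the piRNA pathway, had 2, 1 and 3, and Sall4 and Rhox13 each had 1, 1 and 2, which is the lowest value in each library. Of 10 fibroblast or mesenchymal genes 6 had a region, summing to 1302, 859 and 2576. Of 9 Sertoli cell genes 2 had a region, Wt1 with 2, 2 and 21 and Dhh with 2, 3 and 21. Of 6 macrophage genes 1 had a region, the integrin Itgam with 6, 2 and 6. Of 5 endothelial genes 2 had a region, Kdr with 5, 3 and 9 and Vwf with 8, 6 and 13. None of 7 Leydig cell genes had a region. A region shows a site chosen by the authors, so a missing gene is not shown to be unexpressed or unbound, and the labelled cell type could not be checked against its markers in this way.

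Whether genes took another course here than in the other 3 series was tested with limma. The model had a term for each series, a common course over the 3 times and a departure of the 1 mW, 4.2x series from it, after centring each library on its median gene. No gene of 2204 departed at an adjusted p under 0.05 in any of the 3 contrasts (0 genes, 0.0%). At an unadjusted p under 0.05 there were 43 genes for 180 against 30 s, 46 for 680 against 180 s and 191 for 680 against 30 s. The lowest limma adjusted p was 0.2695, shared by several genes in the contrast of 680 with 30 s. Of the genes at that value, picked after their values were seen, Sdf2l1, a cofactor of endoplasmic reticulum chaperones, departed by 2.00 ± 0.39 (SE, log2) with 2, 2 and 40, Rpl4 by 1.85 ± 0.43 with 3, 4 and 47 and the actin crosslinker Flna by 2.21 ± 0.52 with 3, 4 and 47. Srsf2 departed by 1.82 ± 0.46, and Rmrp by -1.67 ± 0.43. The 4 residual degrees of freedom measure how far the other series depart from a common course, not replicate error. Without the 2.6 mW, 1x series 23 genes departed upward and 3 downward in the contrast of 680 with 30 s, and without the 1 mW, 1x series 4 departed upward, so the absence of calls depends on which series are compared.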

How the data were processed

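The authors' deposited files give a score, called normalized coverage, per listed interval, with 1 file per library. The submitters' processing notes name Bowtie2, FastQC and the build mm10. How reads were counted and normalized and how sites were chosen is not stated there. Intervals of the 12 files separated by at most 10 nt were joined, and width times score was summed per region. Regions were assigned to the RefSeq gene (GRCm38.p6) whose span held them, or to the single protein-coding gene among several. Those left out were 314 with several candidate genes and 186 with no gene. Within the course there is 1 library per time and no test. limma 3.58.1 (R 4.3.3; trend, robust) tested log2(value + 3) over 12 libraries with Benjamini-Hochberg adjustment, and was tested on simulated data. Other steps used Python 3.11.15 and pandas 2.3.3.

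Genes are named by fixed rules: the 10 highest at 680 s, the 8 at each end of 680 and 180 against 30 s with at least 2 regions, and the 4 best covered of each list. Only some of them are printed. The 12 printed sequences, the genes with the lowest limma p-values, the single regions named within a gene and the regions ending below 30 s were chosen after their values were seen. The members and lists were chosen with earlier results of these data known. Alternatives were the pseudocount, the filter, the joining distance, the gene rule, the scaling and the series compared.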

Additional observations from a re-analysis of the deposited data

Results flagged for a closer look

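The total at 180 s relative to 30 s was lower at 1 mW and 4.2x Dazl and higher at 2.6 mW and 4.2x Dazl, with log2 ratios of -0.6252 and 0.094. The 2 series thus moved in opposite directions, with 1 library per time in each, and the difference was not tested.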

How the results depend on the processing

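With 1 library per time, no replicate could be left out. No paired analysis was possible because each group has 1 library and the groups share only the number of a single replicate. The counts of genes different by 2-fold moved most with scaling: relative to the median difference 5 genes were lower and 16 higher at 180 than at 30 s, 23 and 206 at 680 than at 180 s, and 58 and 339 at 680 than at 30 s. At 180 against 30 s a pseudocount of 1 gave 302 lower and 3 higher, and a pseudocount of 10 gave 28 lower. With a mean of at least 30 fewer genes were tested (963), and 70 were lower at 180 than at 30 s, 887 higher at 680 than at 180 s and 395 higher at 680 than at 30 s. Counting covered positions gave log2 ratios of -0.41, 1.24 and 0.82 for 180 to 30, 680 to 180 and 680 to 30 s. The other settings, namely joining distances of 0 and 50 nt, regions in exactly 1 gene, no filter, totals over 17-nt regions or without the 10 highest genes, and subtraction of each library's lowest value, left the counts within 1.5 times, the log2 ratios within 0.1 and the shares within 5 percentage points. For the departure from the other series, 4 genes were higher without the 1 mW, 1x series, and 23 were higher and 3 lower without the 2.6 mW, 1x series, all for 680 against 30 s; 0 passed under the other settings, among them the fit without the 180 s libraries, which was chosen after seeing the data (101 genes at an unadjusted p under 0.05 in limma). Over 110 named genes 1706 values were recomputed, of which 322 moved by more than 0.1. Changes of sign were scored only for differences of at least 2-fold, and none was found. Neither the pseudocounts nor the scaling could have reversed a difference of that size here, so this shows little. Depth in reads is unknown and sets no interval.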

Other observations

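No pair of libraries at the 2 laser powers had the same product of power and time, so only neighbouring values can be set side by side. The product of laser power and time was 180 mJ for the 180 s library at 1 mW and 78 mJ for the 30 s library at 2.6 mW. With 4.2x Dazl the first had a total of 48334 and the second 173943. The 680 s library at 1 mW, with 680 mJ, had 153860, and the 180 s library at 2.6 mW, with 468 mJ, had 185659.

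Across the 2204 genes the log2 difference between 180 and 30 s at 1 mW and 4.2x Dazl had little relation to that of the other series. Pearson r was 0.07 at 1 mW and 1x Dazl, 0.12 at 2.6 mW and 4.2x Dazl and -0.03 at 2.6 mW and 1x Dazl. At 1 mW and 1x Dazl 1097 of the genes had every region at 1 at 30 s and 1316 at 180 s, which limits what r can show there. For 680 against 30 s r was 0.21, 0.60 and 0.45. Each series has its own libraries, while genes are not independent replicates and share the authors' sites and normalization.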
